A study of Mus musculus with 18 samples.

Results

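The genes described here are those of interleukin-2 (IL-2), its receptor and its STAT5 feedback loop: the ligand gene Il2, the receptor chain genes Il2ra, Il2rb and Il2rg, the transcription factor genes Stat5a and Stat5b, and the inhibitor genes Cish, Socs1, Socs2 and Socs3. They were chosen by name, and all 10 were found by Entrez identifier among the 27179 genes listed for each library. All 10 passed the filter on low counts and were tested with the other genes, although Il2 and Socs3 had no count in most libraries. The libraries came from mouse CD4 T cells, isolated as naive cells and kept in culture for 3.5 days on plate-bound antibodies to CD3 and CD28, which stand in for antigen and costimulation. All cells carried the floxed Maf alleles (Maf fl/fl), and the labels gave 9 libraries as CD4Cre- and 9 as CD4Cre+, here called Cre-negative and Cre-positive. CD4Cre is a recombinase driven by the Cd4 promoter, which is active in T cells from their development in the thymus, so a deletion by it is not limited to the time of culture. Each genotype label was combined with the treatments TfhA (Tfh_A in the labels), Tfh1 and Tfh5, with 3 libraries in each of the 6 groups. What each treatment contained is not stated in the labels. After sorting, 50 ng of total RNA went into each 3′ mRNA library, in which a transcript is read near its polyadenylated end.

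IL-2 is a growth factor that activated T cells make and bind. The β chain (Il2rb) and the common γ chain (Il2rg) carry the signal through the kinases JAK1 and JAK3 to STAT5A and STAT5B, and the α chain (Il2ra, CD25) raises the affinity of the receptor. STAT5 in turn raises the transcription of Il2ra and of Cish and several Socs genes, whose proteins dampen the receptor's signal. In CD4 T cells strong IL-2 and STAT5 signalling is known to favour effector and regulatory fates and to oppose the T follicular helper (Tfh) and Th17 fates that the title of the series names.

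The libraries held 6424874 to 9236153 counts, and the 2 most abundant identifiers took 19.7% to 46.2% of them. All 7 T cell markers examined were above 0 in all 18 libraries, with a summed level of 1388 to 2919 CPM (counts scaled to library size). This sum averaged 2662 and 2478 CPM in Cre-positive Tfh1 and Tfh5 against 1424 to 1865 in the other 4 groups. Cd3d alone averaged 1335 and 1246 CPM there, against 506 to 846 in the other 4. Cd3e, Cd3g, Cd28 and Lck were also highest in those 2 groups. Thy1 was highest in Cre-negative Tfh5 (358 CPM) and Cd4 in Cre-positive TfhA (174 CPM). Cre-positive Tfh1 and Tfh5 are also the 2 groups in which Il2ra and Cish were lowest, and the part of this marker difference in those results was not tested. The summed markers of B cells reached at most 4.67 CPM, those of CD8 T cells 7.84 and those of myeloid and dendritic cells 10.4. The 4 markers of natural killer (NK) and innate lymphoid cells summed to 9.82 to 52.8 CPM, with Klrd1 alone above 0 in every library and the defining marker Ncr1 at 0 in all 18. The 4 markers of regulatory T cells, which carry much IL-2 receptor, summed to 9.87 to 39.6 CPM, and the whole series held 13.67 counts of their defining gene Foxp3. Maf RNA went against the genotype labels in all 18 libraries: it was at most 2.03 CPM in each library labelled Cre-negative and 5.03 to 397 CPM in each labelled Cre-positive. The groups are therefore named by their labels, and each direction between them is one between labels that the Maf RNA contradicts. The labels do not say if replicates are separate animals, so p-values measure the spread between these libraries, which may be technical. In such bulk RNA, fewer cells that carry a transcript and less of it per cell cannot be told apart.

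Between the genotype labels, Il2ra differed under Tfh1 and Tfh5, Cish and Socs1 under Tfh5, and none of the 10 genes detectably under TfhA. Il2ra was lower with the label Cre-positive, 2.35-fold in Tfh1 and 3.19-fold in Tfh5, Cish was 2.33-fold lower in Tfh5, and Socs1 was 3.06-fold higher in Tfh5. In TfhA 0 of the 10 genes passed edgeR's quasi-likelihood test at an adjusted p below 0.05, against 0% of the 11735 genes tested. At an unadjusted p below 0.05 that comparison held 606 of all genes and 0 of the 10, and DESeq2 called 18 genes and 0 of the 10. In Tfh1 the 1 gene called of 10 was lower, against 0.852% of all genes called, 0.511% higher and 0.341% lower. In Tfh5 there were 3 called of 10, 1 higher and 2 lower, against 3.24% of all genes, 1.19% higher and 2.05% lower. The median log2 fold change of the 8 genes with counts in every library was 0.011, -0.12 and 0.0098 for TfhA, Tfh1 and Tfh5, against 0, -0.018 and 0 over all genes tested.

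**Figure D1:**
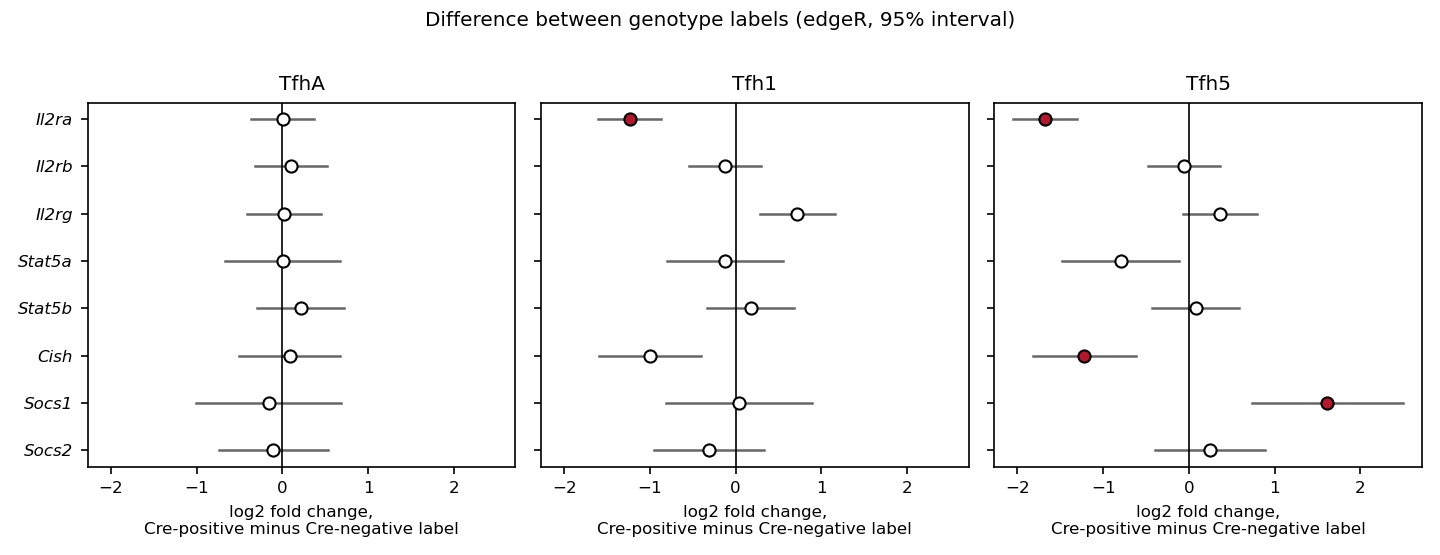
Log2 fold change between the genotype labels (Cre-positive minus Cre-negative) for 8 genes in each treatment, with 95% intervals from edgeR; filled points passed an adjusted p below 0.05. No point is filled in TfhA, Il2ra is filled on the left at -1.24 in Tfh1 and -1.68 in Tfh5, and Cish (-1.22) and Socs1 (1.62) are filled in Tfh5 alone.

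Between the treatments, the receptor genes moved in different directions. With the label Cre-negative, Il2ra and Il2rb were higher in Tfh5 than in TfhA, Socs1 was lower there, and Il2rg was lower in Tfh1 than in TfhA. With the label Cre-positive, Il2rb was again higher in Tfh5 than in TfhA, whereas Stat5a and Cish were lower. The edgeR test of Tfh1 against TfhA called 2 of the 10 genes with the label Cre-negative, against 2.23% of all genes. The same contrast called 0 with the label Cre-positive, against 2.57% of all genes, with 3 of the 10 genes at an unadjusted p below 0.05 and 0 called by DESeq2. Tfh5 against TfhA called 3 with the label Cre-negative, 2 higher and 1 lower, against 5.08% of all genes, 3.17% higher and 1.91% lower. It also called 3 with the label Cre-positive, 1 higher and 2 lower, against 5.39% of all genes, 2.39% higher and 3.00% lower. Tfh5 against Tfh1 called 0 with either label, against 0.554% of all genes among Cre-negative libraries and 1.76% among Cre-positive ones. In that contrast 2 and 3 of the 10 genes had an unadjusted p below 0.05, and DESeq2 called 0 with either label.

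**Figure D2:**
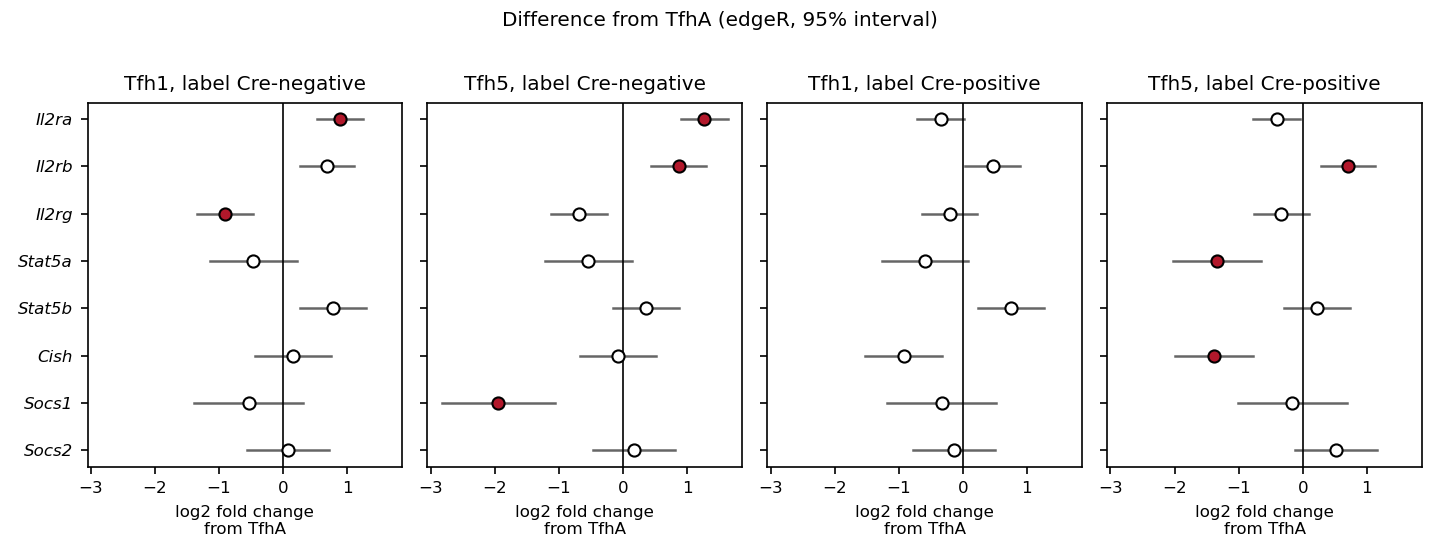
Log2 fold change of Tfh1 and of Tfh5 from TfhA within each genotype label for 8 genes, with 95% intervals from edgeR; filled points passed an adjusted p below 0.05. Il2ra lies right of 0 in both Cre-negative panels and left of 0 in both Cre-positive panels, Il2rb lies right of 0 in all 4, and Cish is filled at -1.38 in Tfh5 with the label Cre-positive.

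The split of called genes into higher and lower depended on scaling. The 2 most abundant identifiers took 19.7% to 33.7% of the counts of Cre-negative TfhA libraries and 36.8% to 43.0% of those of Cre-negative Tfh5 libraries. Scaling by plain library size, an alternative chosen after seeing the data, called 143 genes higher and 810 lower in Cre-negative Tfh5 against TfhA, where the TMM-scaled fit called 372 and 224. It moved the median log2 fold change of all genes there from -0.094 to -0.64. In the genotype comparison it called 38 higher and 38 lower in Tfh1 (60 and 40 with TMM) and 151 and 154 in Tfh5 (140 and 240 with TMM), and in Cre-positive Tfh5 against TfhA 201 and 368 (281 and 352 with TMM). With the total taken without those 2 identifiers, also chosen after seeing the data, the splits were 52 and 56 in the Tfh1 genotype comparison, 174 and 189 in the Tfh5 one, and 245 and 364 in Cre-negative Tfh5 against TfhA. In Tfh1 against TfhA plain library size called 64 and 337 for Cre-negative libraries (176 and 86 with TMM) and 103 and 159 for Cre-positive ones (185 and 117), and the total without the 2 identifiers 120 and 133, and 135 and 177. For the difference of label effects it called 17 and 9 (Tfh1 against TfhA, 12 and 16 with TMM) and 80 and 44 (Tfh5 against TfhA, 39 and 101 with TMM, and 60 and 68 without the 2 identifiers). Changes are therefore read against all other genes, as TMM scaling does.

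The ligand gene Il2 (chromosome 3, 37120713 to 37125954, minus strand, GRCm38.p6, the full form of mm10) was hardly counted. It had 110.5 counts over the series and was at 0 in 11 of 18 libraries, where a group of 3 libraries at 0 allows up to 3 counts. Cre-negative TfhA held 0, 20 and 27 counts, Cre-positive TfhA 0, 1 and 15, and Cre-negative Tfh5 15, 0 and 0. Cre-positive Tfh1 had 31 counts in 1 library and Cre-positive Tfh5 1.5 in another, with the rest at 0, and Cre-negative Tfh1 was at 0 throughout. Every group thus had at least 1 library at 0, the groups overlapped, and edgeR's quasi-likelihood test called no difference of Il2. No order of the groups can be read at this depth. The gene Adad1 lies over Il2 on the opposite strand, and the labels do not say if reads were assigned by strand.

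**Figure D3:**
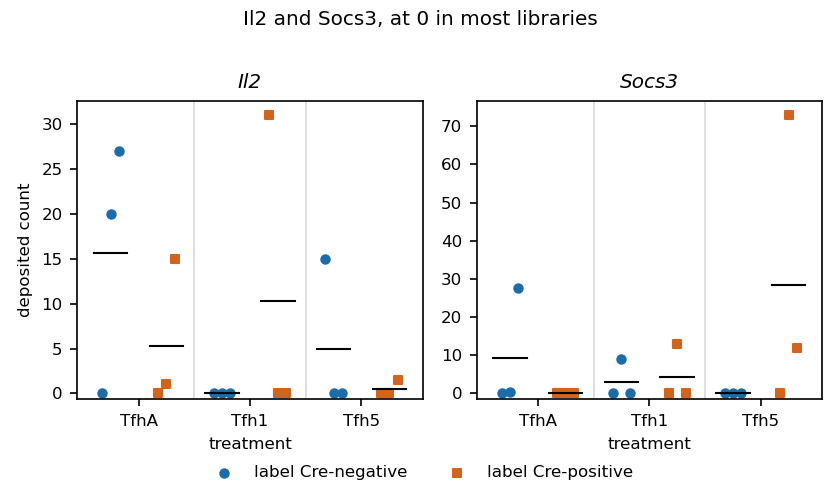
Deposited counts per library of the ligand gene Il2 and the feedback gene Socs3 in the 6 groups; points are libraries and bars the group means. Most points lie at 0, and single libraries (31 counts of Il2 in Cre-positive Tfh1, 73 of Socs3 in Cre-positive Tfh5) set the highest values.

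Il2ra encodes the α chain of the receptor (chromosome 2, 11642792 to 11693194, plus strand, GRCm38.p6). The 250 bases before its annotated start are shown because Il2ra differed most clearly between the labels, with the promoters of Cish and Socs1, the other genes called there, given with those genes. The sequence is from RefSeq (GRCm38.p6, chr2:11642542-11642791, plus strand), and the capitals mark the match to the NF-κB type motif GGGANNNNCC.

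Il2ra: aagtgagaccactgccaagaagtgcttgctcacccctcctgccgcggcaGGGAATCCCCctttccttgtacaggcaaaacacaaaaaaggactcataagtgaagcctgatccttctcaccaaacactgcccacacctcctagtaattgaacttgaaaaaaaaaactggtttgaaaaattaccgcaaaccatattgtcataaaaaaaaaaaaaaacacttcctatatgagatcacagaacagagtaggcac

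The motif lies 201 to 192 bases before the start, and 17.6% of the 32851 promoter windows of the table hold it on either strand. The STAT palindrome TTCNNNGAA, in 7.02% of all windows, and the Maf recognition core TGCTGA, in 16.1%, have no match in this window. The motifs were searched on both strands, and no 2 matches overlapped in the windows of the genes described here. The table held entries for 8 of the 10 genes, and a match is a description of letters only.

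Under TfhA the Il2ra level was 311, 296 and 345 CPM with the label Cre-negative and 325, 283 and 344 with the label Cre-positive. The 2 groups overlapped fully, and the log2 fold change was 0.0017 ± 0.18 (SE), with a 95% interval of -0.36 to 0.36. Under Tfh1 the Cre-negative libraries held 536, 580 and 648 CPM and the Cre-positive ones 216, 287 and 246. Every Cre-negative library lay above every Cre-positive one, with a log2 fold change of -1.24 ± 0.18 (edgeR's quasi-likelihood test, adjusted p = 9.16e-05). Under Tfh5 the gap was wider, with 887, 660.0 and 746 CPM in the Cre-negative libraries and 223, 229 and 267 in the Cre-positive ones. The log2 fold change was -1.68 ± 0.18 (adjusted p = 9.97e-08). In the order of group means, Cre-negative Tfh5 (764 ± 115 CPM, SD, n = 3) came first and Cre-negative Tfh1 (588 ± 56.2) second. Both TfhA groups (317 ± 25.1 Cre-negative, 317 ± 31.1 Cre-positive) followed and could not be told apart, and Cre-positive Tfh1 (250 ± 35.9) and Tfh5 (239 ± 23.8), which overlapped each other, came last. The annotated gene Gm37881 overlaps Il2ra on the same strand, and 9 of the 18 Il2ra values were not whole numbers. They were those of every Cre-negative Tfh1 and Tfh5 library and of single libraries of the Cre-positive groups. No Cre-negative TfhA value was among them. Such values also occurred in genes with no overlapping annotated gene. They were 9 of 18 for Il2rb, 14 for Socs2, 5 for Stat5b, 4 for Socs1 and 2 for Socs3. How reads in the overlap of Il2ra and Gm37881 were divided is not stated, and its part in the Il2ra differences was not tested.

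The treatment contrasts of Il2ra had opposite signs under the 2 labels. With the label Cre-negative it rose from TfhA to Tfh1 by 0.89 ± 0.18 on the log2 scale (edgeR, adjusted p = 0.00265) and from TfhA to Tfh5 by 1.27 ± 0.18 (adjusted p = 7.88e-06). The first of these calls was lost with plain library size (0.47, adjusted p = 0.252), where the median of all genes was -0.47. From Tfh1 to Tfh5 the log2 fold change was 0.38 and did not pass (edgeR, adjusted p = 0.457). The 3 libraries of each group did not overlap. Among Cre-positive libraries the values were -0.35 (adjusted p = 0.383) for Tfh1 and -0.41 (adjusted p = 0.216) for Tfh5 against TfhA, and neither passed. The difference of the genotype effect was tested directly, which called Il2ra alone among the 10 genes. It was -1.24 ± 0.25 for Tfh1 against TfhA (adjusted p = 0.0139), where 0.239% of all genes were called, and -1.68 ± 0.25 for Tfh5 against TfhA (adjusted p = 8.37e-05), where 1.19% were called. Between Tfh5 and Tfh1 the effect differed by -0.44 (adjusted p = 0.680). There 0 of the 10 genes and 0.0597% of all genes were called, with 2 of the 10 at an unadjusted p below 0.05 and 0 called by DESeq2. The Tfh1 difference lost its call in 5 alternatives, without Cre-negative TfhA replicate 4 (adjusted p = 0.0555), Cre-negative Tfh1 replicate 5 (0.0757), Cre-positive TfhA replicate 6 (0.0682) or Cre-positive Tfh1 replicate 1 (0.0800), and with plain library size (0.263).

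**Figure D4:**
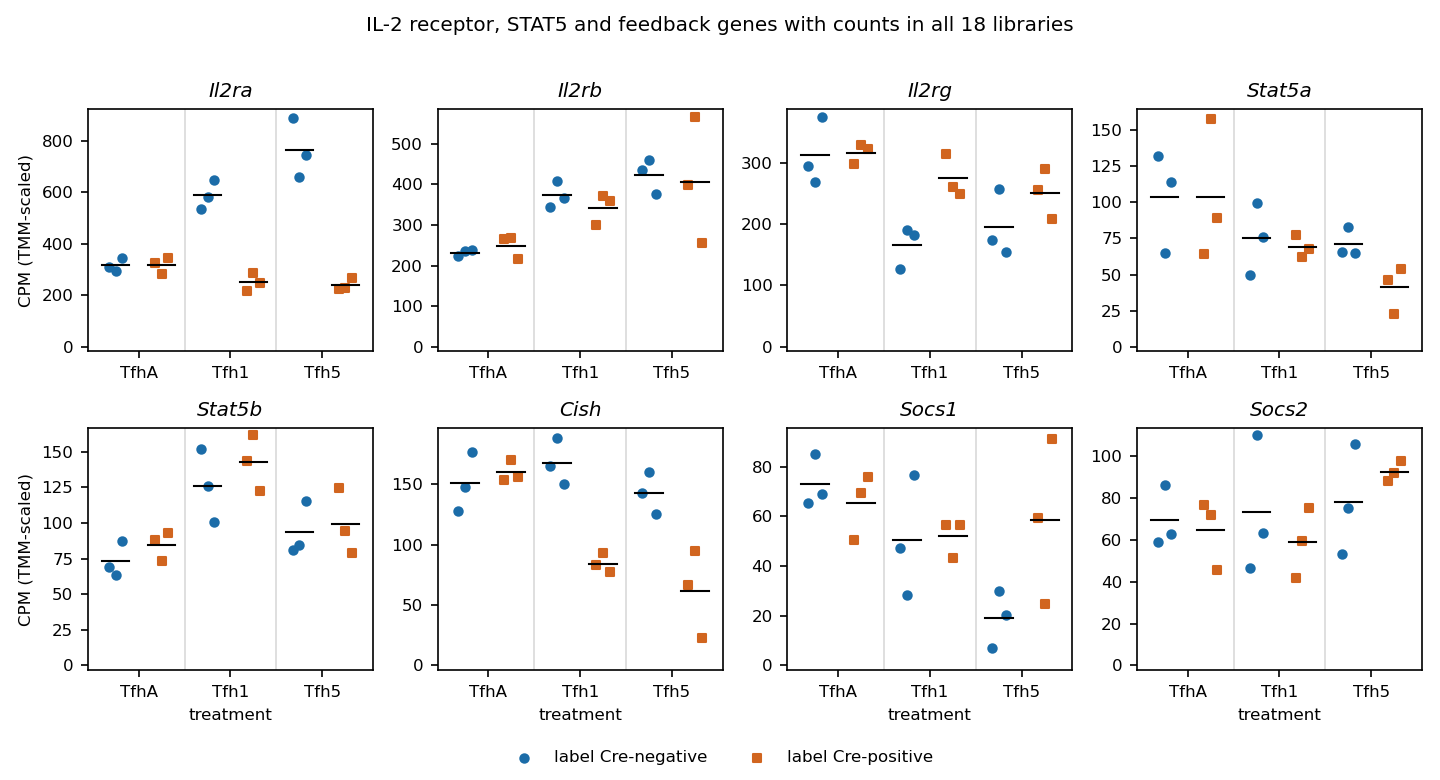
Level in CPM, scaled by TMM, of the 8 genes with counts in all 18 libraries, by treatment and genotype label; points are libraries, bars the means of 3 and each panel has its own axis from 0. Il2ra splits by label in Tfh1 and Tfh5 (536 to 887 CPM against 216 to 287) and not in TfhA, and Cish is lowest in the Cre-positive libraries of Tfh1 and Tfh5.

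Il2rb encodes the signalling β chain, which IL-2 shares with IL-15 (chromosome 15, 78479256 to 78511621, minus strand). Its Cre-negative libraries held 223, 236 and 238 CPM under TfhA, 344, 408 and 368 under Tfh1 and 436, 460.0 and 376 under Tfh5. Its Cre-positive libraries held 265, 267 and 216 CPM under TfhA, 299, 371 and 360 under Tfh1 and 398, 567 and 255 under Tfh5. The labels overlapped under every treatment, and TfhA lay lowest with either label, apart from the Cre-positive Tfh5 library of 255 CPM, which fell within the TfhA range. Tfh5 was above TfhA by 0.87 ± 0.21 on the log2 scale with the label Cre-negative (edgeR, adjusted p = 0.00802) and by 0.71 ± 0.21 with the label Cre-positive (adjusted p = 0.0362). The summed NK and innate lymphoid markers also averaged lower in the TfhA groups (15.5 and 15.1 CPM) than in the Tfh1 groups (39.9 Cre-negative, 33.7 Cre-positive) and the Tfh5 groups (28.8 and 23.2), nearly all from Klrd1, with Ncr1 at 0 throughout, and their part in the Il2rb differences was not tested. The call of Il2rb in Cre-negative libraries was lost with plain library size (0.31, adjusted p = 0.429) and without the 2 most abundant identifiers in the total (0.65, adjusted p = 0.0624). The call in Cre-positive libraries was lost in 7 of 12 alternatives. Without Cre-positive Tfh5 replicate 3, its highest library, that difference was 0.39 (adjusted p = 0.381). For Tfh1 against TfhA the log2 fold changes were 0.68 (adjusted p = 0.0807) with the label Cre-negative and 0.46 (adjusted p = 0.310) with the label Cre-positive, and neither passed. The Cre-negative one was called by DESeq2 (adjusted p = 0.0345) and with only the 2 groups in the fit (0.0124). Between the labels the log2 fold changes were 0.10, -0.12 and -0.059 for TfhA, Tfh1 and Tfh5, with 95% intervals of -0.32 to 0.52, -0.54 to 0.30 and -0.48 to 0.36. Over the same libraries and treatments in which Il2ra split by label, its partner chain gene Il2rb therefore did not pass the test.

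Il2rg encodes the common γ chain, which also serves the receptors of IL-4, IL-7, IL-9, IL-15 and IL-21 (chromosome X, 101264385 to 101268255, minus strand). Under TfhA it was 295, 268 and 375 CPM with the label Cre-negative and 298, 330 and 323 with the label Cre-positive. Under Tfh1 the Cre-negative libraries held 127, 191 and 182 CPM and the Cre-positive ones 314, 260.1 and 250.1. All Cre-negative Tfh1 libraries lay below all others of that treatment, with a log2 fold change between the labels of 0.72 ± 0.22 that did not pass edgeR's test over all genes (adjusted p = 0.124) and passed DESeq2's (adjusted p = 0.0408). Under Tfh5 the labels overlapped, with 174, 257 and 155 CPM against 255, 290.3 and 209 (0.36 ± 0.21, adjusted p = 0.442). With the label Cre-negative, Il2rg fell by 0.91 on the log2 scale from TfhA to Tfh1 (SE 0.22, edgeR adjusted p = 0.0131), the opposite direction to Il2ra in the same libraries. This call was lost without Cre-negative TfhA replicate 5 (adjusted p = 0.168) or Cre-negative Tfh1 replicate 2 (adjusted p = 0.149). From TfhA to Tfh5 the difference was -0.68 (adjusted p = 0.0585), and it was called by DESeq2 (adjusted p = 0.0291), with plain library size (-1.23, 0.000763), with the total without the 2 identifiers (-0.90, 0.00776) and without Cre-negative Tfh5 replicate 4 (-0.93, 0.0132). In Cre-positive cells the differences from TfhA were -0.21 in Tfh1 and -0.33 in Tfh5, and neither passed. The annotated gene Gm20489 overlaps Il2rg on the same strand, and 11 of its 18 values were not whole numbers, and the labels do not say how reads in the overlap were divided.

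Because a ratio of counts within a library does not depend on scaling, the 3 receptor genes were also set against each other, a description chosen after their values were seen and given with no test. The ratio of Il2ra to Il2rg counts averaged 1.02 ± 0.095 (SD, n = 3) in Cre-negative TfhA, 3.60 ± 0.60 in Tfh1 and 4.16 ± 1.39 in Tfh5. In the Cre-positive groups it was 1.01 ± 0.13, 0.925 ± 0.22 and 0.979 ± 0.26. The lowest Cre-negative library of Tfh1 and Tfh5 had a ratio of 2.57 and the highest Cre-positive one 1.28. The ratio of Il2ra to Il2rb was 1.37 ± 0.10, 1.58 ± 0.17 and 1.82 ± 0.33 in Cre-negative TfhA, Tfh1 and Tfh5, and 1.30 ± 0.27, 0.727 ± 0.046 and 0.669 ± 0.33 with the label Cre-positive. Under Tfh1 and Tfh5 the labels did not overlap in either ratio, and under TfhA they overlapped in both. The ratios do not say which chain was more abundant, since reads per transcript can differ between genes.

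Stat5a and Stat5b encode the 2 STAT5 proteins and lie head to head on chromosome 11 (Stat5a 100859351 to 100885169, plus strand; Stat5b 100780731 to 100859004, minus strand). They are close paralogs and Stat3 overlaps Stat5a on the opposite strand, so the division of reads among them is uncertain. Stat5a was 132, 64.6 and 114 CPM in Cre-negative TfhA libraries, 49.3, 99.8 and 76.2 in Tfh1 ones and 65.7, 82.9 and 65.2 in Tfh5 ones. Cre-positive libraries held 64.3, 158 and 89.0 CPM (TfhA), 77.4, 62.2 and 67.4 (Tfh1) and 46.4, 22.7 and 54.0 (Tfh5). Cre-positive Tfh5 was the lowest group and overlapped none of the others except Cre-negative Tfh1, whose lowest library had 49.3 CPM. From TfhA to Tfh5 with the label Cre-positive Stat5a fell by 1.34 on the log2 scale (SE 0.34, edgeR adjusted p = 0.0108). The call was lost with only the compared groups in the fit (adjusted p = 0.0741), without Cre-positive TfhA replicate 3 (-0.90, adjusted p = 0.197) and without Cre-positive Tfh5 replicate 3 (-1.05, adjusted p = 0.0955). Between the labels in Tfh5 the difference was -0.80 ± 0.34 (adjusted p = 0.243) and did not pass.

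Stat5b had its highest group means under Tfh1. Its Cre-negative libraries held 68.8, 63.2 and 87.5 CPM (TfhA), 152, 126 and 101 (Tfh1) and 81.4, 84.8 and 116 (Tfh5). Its Cre-positive libraries held 88.2, 73.3 and 93.2 CPM (TfhA), 144, 162 and 122 (Tfh1) and 124, 94.4 and 78.8 (Tfh5). Tfh1 and TfhA did not overlap with either label. The log2 fold changes of 0.79 (Cre-negative, adjusted p = 0.104) and 0.75 (Cre-positive, adjusted p = 0.115) did not pass edgeR's test over all genes. The Cre-negative one was called with only the 2 groups in the fit (adjusted p = 0.0488). Between the labels the differences of Stat5b were 0.21, 0.18 and 0.078 in TfhA, Tfh1 and Tfh5, with 95% intervals of -0.30 to 0.72, -0.33 to 0.69 and -0.43 to 0.59. The within-library ratio of Stat5a to Stat5b counts averaged 1.41 and 1.28 in the Cre-negative and Cre-positive TfhA groups and 0.433 to 0.783 in the other 4 groups, a description with no test.

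Cish encodes CIS, an SH2 protein that STAT5 induces and that acts back on the receptor (chromosome 9, 107296659 to 107302784, plus strand). Its promoter (RefSeq, GRCm38.p6, chr9:107296409-107296658, plus strand) is all in lower case because none of the 3 motifs was matched in this window.

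Cish: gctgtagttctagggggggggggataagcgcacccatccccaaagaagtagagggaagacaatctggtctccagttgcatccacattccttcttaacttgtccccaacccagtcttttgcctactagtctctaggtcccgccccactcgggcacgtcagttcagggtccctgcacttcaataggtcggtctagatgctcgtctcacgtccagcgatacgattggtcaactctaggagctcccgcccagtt

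No match says only that these letters are not in these 250 bases. Under TfhA Cish was 128, 148 and 177 CPM with the label Cre-negative and 153, 170.2 and 156 with the label Cre-positive, and the groups overlapped. Under Tfh1 it was 165, 188 and 150.4 CPM against 82.8, 92.9 and 77.3, and under Tfh5 143, 160.0 and 126 against 66.6, 95 and 22.3. In both treatments every Cre-positive library lay below every Cre-negative one. The log2 fold change was 0.084 (95% interval -0.50 to 0.67) in TfhA and -0.99 ± 0.29 in Tfh1, which did not pass (edgeR, adjusted p = 0.114). It was -1.22 ± 0.30 in Tfh5 (adjusted p = 0.0124). The Tfh5 call was lost without Cre-positive Tfh5 replicate 6, the library with 22.3 CPM (-0.80, adjusted p = 0.0924), and with only the 2 groups in the fit (-1.21, adjusted p = 0.270). The Tfh1 difference was called with no filter on low counts (adjusted p = 0.0259) and with only the 2 groups in the fit (adjusted p = 0.0176). With the label Cre-positive, Cish fell from TfhA to Tfh5 by 1.38 on the log2 scale (SE 0.30, adjusted p = 0.00217, and 0.0634 with only those groups). From TfhA to Tfh1 its difference was -0.92 (adjusted p = 0.0893), which was called with no filter (0.0275), only the 2 groups (0.0208), plain library size (0.0478) or the total without the 2 identifiers (0.0412). In Cre-negative cells the contrasts against TfhA were 0.15 for Tfh1 and -0.078 for Tfh5, with 95% intervals of -0.43 to 0.74 and -0.67 to 0.51. The difference of the genotype effect was -1.31 for Tfh5 against TfhA and did not pass (adjusted p = 0.134), though it was called without Cre-positive Tfh5 replicate 3 (-1.77, adjusted p = 0.0139) and with no filter on low counts (adjusted p = 0.0430). The label with the lower Il2ra thus also had the lower Cish, although in TfhA neither was lower. Genes overlapping Cish on the opposite strand (Gm17040 and Gm17041) share its position, and strand use is not given.

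Socs1 encodes a suppressor of cytokine signalling that inhibits JAK kinases (chromosome 16, 10783808 to 10785536, minus strand). Its promoter (RefSeq, GRCm38.p6, chr16:10785537-10785786, minus strand, printed in the direction of the gene) also held none of the 3 motifs.

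Socs1: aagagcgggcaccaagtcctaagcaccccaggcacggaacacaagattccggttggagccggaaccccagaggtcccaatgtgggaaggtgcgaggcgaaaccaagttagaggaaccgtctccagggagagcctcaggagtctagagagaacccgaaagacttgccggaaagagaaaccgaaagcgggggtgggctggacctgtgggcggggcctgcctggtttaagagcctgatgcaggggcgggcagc

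Socs1 differed between the labels in Tfh5 in the opposite direction to Il2ra and Cish. Under Tfh5 it was 7.00, 29.8 and 20.4 CPM with the label Cre-negative and 59.2, 24.5 and 91.3 with the label Cre-positive. The groups overlapped, since the lowest Cre-positive library (24.5 CPM) lay below the highest Cre-negative one (29.8 CPM). The log2 fold change was 1.62 ± 0.43 (edgeR, adjusted p = 0.0277). This call was lost with only the 2 groups in the fit (adjusted p = 0.274), without Cre-negative Tfh5 replicate 2 (1.22, adjusted p = 0.141) or replicate 5 (adjusted p = 0.0906), and without Cre-positive Tfh5 replicate 1 (adjusted p = 0.0779) or replicate 6 (1.15, adjusted p = 0.215). Under TfhA it was 65.3, 85.2 and 68.8 CPM against 50.6, 69.5 and 75.9, and under Tfh1 47.0, 28.2 and 76.5 against 56.4, 43.4 and 56.3. Both pairs overlapped, with log2 fold changes of -0.16 and 0.041, and the sign in Tfh1 was negative under both added scalings (-0.099 and -0.061). Among the Cre-negative libraries, Socs1 fell from TfhA to Tfh5 by 1.94 on the log2 scale (SE 0.43, adjusted p = 0.00399), and this call was kept in all 12 alternatives run. Its difference from Tfh1 to Tfh5 was -1.41 (adjusted p = 0.146), which was called with no filter (0.0132) and without Cre-negative Tfh5 replicate 4 (-1.89, 0.0475). For the Cre-positive libraries the difference from TfhA to Tfh5 was -0.16, with a 95% interval of -1.01 to 0.68. The difference of the genotype effect between Tfh5 and TfhA was 1.78 (adjusted p = 0.174) and did not pass, though it was called without Cre-positive Tfh5 replicate 3 (2.15, adjusted p = 0.0410) and with no filter on low counts (adjusted p = 0.0333).

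Socs2 encodes a suppressor that STAT5 induces in many cell types and that is best known for restraining growth hormone signalling (chromosome 10, 95383903 to 95417321, minus strand). Cre-negative libraries held 59.0, 86.5 and 62.8 CPM (TfhA), 46.5, 110.2 and 63.4 (Tfh1) and 53.2, 75.4 and 106 (Tfh5). Cre-positive libraries held 76.5, 71.9 and 45.5 CPM (TfhA), 41.8, 59.6 and 75.5 (Tfh1) and 88.2, 91.9 and 97.9 (Tfh5). The Cre-positive Tfh5 libraries lay above the other 2 Cre-positive groups and within the range of Cre-negative Tfh5. No contrast of Socs2 passed, and between the labels the 95% intervals were -0.74 to 0.54 (TfhA), -0.96 to 0.33 (Tfh1) and -0.39 to 0.89 (Tfh5) on the log2 scale. Its values were not whole numbers in 14 of 18 libraries.

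Socs3 encodes a suppressor that acts mainly on receptors of the IL-6 family (chromosome 11, 117966079 to 117970336, minus strand). It had 135 counts over the series and was at 0 in 12 of 18 libraries. Of these counts 73, or 54.1%, came from Cre-positive Tfh5 replicate 3, where another library of that group was at 0. Cre-negative Tfh5 and Cre-positive TfhA were at 0 in all 3 libraries, which allows up to 3 counts in each group. No contrast of Socs3 passed. The promoter window of Socs3 (GRCm38.p6, chr11:117969367-117969616, minus strand) lies within the coordinates of the gene given above, before an annotated start inside them. This window held the STAT palindrome TTCTTAGAA, 154 to 146 bases before that start. The windows of the other 7 genes with an entry held no match to that motif.

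The genes related to these by pathway were taken from 5 lists written from textbook knowledge, and 72 of their list entries were tested. The lists were chosen with earlier results of these data known, so their shares of called genes are descriptions only. Among receptor and ligand genes of the common γ chain family, 4 of 10 genes were not tested for low counts (Il4, Il7, Il15 and Il9r). Of the 6 tested, 2 were lower and 0 higher in Cre-positive Tfh5 than in Cre-negative Tfh5, beside 2.05% of all genes lower and 1.19% higher. Il21r, the IL-21 receptor gene, was at 77.4 ± 27.9 against 240.4 ± 18.8 CPM (SD, n = 3; log2 fold change -1.64, adjusted p = 7.54e-05). Il7r, the gene of the IL-7 receptor α chain, was at 71 ± 10.5 against 184 ± 76.8 CPM (-1.38, adjusted p = 0.00878), a call that did not hold without Cre-negative Tfh5 replicate 2 (-0.98, adjusted p = 0.116) or Cre-positive Tfh5 replicate 6 (-1.25, adjusted p = 0.0629). From TfhA to Tfh5, 3 of 6 were higher and 0 lower in Cre-negative libraries, beside 3.17% and 1.91% of all genes. Il7r rose by 2.11 (adjusted p = 3.11e-05), the cytokine gene Il21 rose by 1.31 (adjusted p = 0.00280), and Il9 had 0 counts in TfhA and 330 in Tfh5 (adjusted p = 0.0303 in edgeR and 0.0802 in DESeq2). Il9 was not called without Cre-negative TfhA replicate 2, 4 or 5 or Tfh5 replicate 5 (adjusted p = 0.112 to 0.136). In the same contrast of Cre-positive libraries Il21 rose by 1.03 (adjusted p = 0.0221) and Il21r fell by 1.32 (adjusted p = 0.000518), 1 higher and 1 lower of 6 beside 2.39% and 3.00% of all genes. The Il21 call was lost with plain library size among Cre-negative libraries (0.74, adjusted p = 0.171) and among Cre-positive ones (0.145). Among Cre-positive libraries it was also lost with only the 2 groups (0.0833), without TfhA replicate 1 (0.167) and without Tfh5 replicate 1 (0.114) or 3 (0.0505). Between the labels in Tfh5 the list's median log2 fold change was -0.82 over the 6 genes tested, against 0 over all genes tested. Over the 5 genes with a mean of at least 1 CPM in both groups, the list's median was -1.38.

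Of the 22 JAK-STAT signalling partners, which include the kinases Jak1 and Jak3, 0 were called between the labels in Tfh1 and 1 in Tfh5, beside 0.852% and 3.24% of all genes. The 1 gene is 4.55% of the 22, close to the share over all genes. That gene was Stat4, the transducer of IL-12 signals, which was higher with the label Cre-positive (19.1 ± 7.67 against 2.28 ± 3.02 CPM, log2 fold change 3.02, adjusted p = 0.00552). Between Cre-negative libraries Stat4 fell from TfhA to Tfh5 by 4.65 (adjusted p = 2.84e-05). In that contrast Ptpn6, the phosphatase SHP-1, fell by 0.91 (adjusted p = 0.0390), and the adaptor Gab2 rose by 2.75 (adjusted p = 0.00859). Ptpn6 lost its call with only the 2 groups in the fit (adjusted p = 0.145) and without Cre-negative TfhA replicate 2 (0.181), 4 (0.0652) or 5 (0.0893) or Tfh5 replicate 2 (0.136) or 5 (0.257). Gab2 lost its call with only the 2 groups (adjusted p = 0.0741) and without Cre-negative TfhA replicate 2 (0.0566) or 5 (0.0889) or Tfh5 replicate 4 (0.0572). Gab2 also rose in Cre-positive Tfh5 against TfhA, by 2.62 (adjusted p = 0.0109), and was the 1 gene of the 22 called there, where 5.39% of all genes were called. Without Cre-positive TfhA replicate 3 (adjusted p = 0.0748) or 6 (0.0542) that call was lost. The median of the list was 0.055 in the Tfh5 genotype comparison, close to the 0 of all genes.

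Of 29 genes known to be raised by IL-2 or STAT5, 26 were tested, and Prdm1, Il1rl1 and Foxp3 were not. Between the labels in Tfh5, 0 were higher and 5 lower in the Cre-positive libraries. The 5 were Il24, Bcl2, Lta, Nfil3 and Ccnd2. Il24, a cytokine gene of the IL-10 family, was at 24.8 ± 14.4 CPM in Cre-negative against 1 count in 3 Cre-positive libraries. The survival gene Bcl2 was at 28.6 ± 11.2 against 6.77 ± 3.65 CPM (edgeR, adjusted p = 0.00164). The cytokine gene Lta was at 71.6 ± 14.1 against 19.6 ± 12.1 CPM (adjusted p = 0.00728). Nfil3 (-2.22, adjusted p = 0.0239) and the cyclin gene Ccnd2 (-0.63, adjusted p = 0.0463) are named only to complete the 5. The label Cre-positive also had the lower Il2ra and Cish in Tfh5, but the higher Socs1 (log2 fold change 1.62). Il7r, on the list of genes known to be lowered by IL-2 or STAT5, was lower with that label too (-1.38). A link between these differences was not tested. Lta lost its call without Cre-positive Tfh5 replicate 6 (-1.47, adjusted p = 0.0700). With only the 2 groups in the fit, Bcl2 (adjusted p = 0.191), Lta (0.107), Il7r (0.0712) and Stat4 (0.348) lost their calls in edgeR. In Tfh1, 1 of the 26 was called, beside 0.852% of all genes: Il24, with 86.9 ± 19.0 CPM against 7 counts in 3 libraries. The median log2 fold change of the 26 was -0.28 in Tfh5, and that of all genes 0. Over the 23 genes with at least 1 CPM in both groups it was -0.15. The 5 are 19.2% of the 26 tested, beside 3.24% of all genes tested. Because the list was chosen with earlier results known, the gap between these shares is no test of the list.

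Within the labels, genes of this list moved in both directions between the treatments. Tfh5 against TfhA gave 4 higher and 5 lower of the 26 among Cre-negative libraries, and 4 higher and 12 lower among Cre-positive ones. Of all genes 3.17% were higher and 1.91% lower in the first contrast, and 2.39% and 3.00% in the second. Furin, a protease gene, was higher in Cre-negative Tfh5 (267 ± 44.7 against 28.7 ± 6.59 CPM, log2 fold change 3.22, adjusted p = 2.60e-09). Tnfrsf9, which encodes the costimulatory receptor 4-1BB, fell by 1.76 with the label Cre-negative (adjusted p = 1.18e-06) and by 3.20 with the label Cre-positive (adjusted p = 6.13e-12). Bcl2 fell by 2.11 with the label Cre-negative (edgeR, adjusted p = 0.000524) and by 4.50 with the label Cre-positive (adjusted p = 5.65e-09). Tnfrsf18, the receptor GITR, fell by 2.11 with the label Cre-positive (adjusted p = 1.06e-08). The median of the 26 was -0.51 among Cre-negative libraries and -1.24 among Cre-positive ones, against -0.094 and -0.053 over all genes tested. Over the list's genes with at least 1 CPM in both groups it was -0.44 and -1.11.

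Of 7 genes known to be lowered by IL-2 or STAT5, 6 were tested. Bcl6, the defining transcription factor of Tfh cells, was not tested, with 0.25 counts over the series. Between the labels 0 were called in Tfh1 and 1 in Tfh5, which was Il7r, beside 0.852% and 3.24% of all genes. Il17a, the Th17 cytokine gene, rose from TfhA to Tfh5 with either label, from 6.20 ± 1.30 to 165 ± 38.6 CPM (adjusted p = 2.09e-12) with the label Cre-negative and from 7.64 ± 2.20 to 147 ± 15.9 (adjusted p = 8.85e-12) with the label Cre-positive. Of 12 regulators of Il2 and Il2ra transcription, 1 was higher and 1 lower in Cre-positive Tfh5 than in Cre-negative Tfh5, beside 1.19% and 2.05% of all genes. Egr1, an early response gene, was at 41.3 ± 12.7 against 9.80 ± 7.34 CPM (log2 fold change 2.07, adjusted p = 0.0264), and the AP-1 gene Junb was at 204 against 333 CPM (-0.71, adjusted p = 0.0380). Egr1 lost its call with only the 2 groups in the fit (adjusted p = 0.249), without Cre-negative Tfh5 replicate 5 (1.56, adjusted p = 0.112) and without Cre-positive Tfh5 replicate 1 (1.79, adjusted p = 0.128). Junb kept its call in 3 of 11 alternatives. It was lost with no filter (adjusted p = 0.0508), only the 2 groups (0.332), plain library size (0.177) or the total without the 2 identifiers (0.0902). It was also lost without Cre-negative Tfh5 replicate 4 (0.257) or 5 (0.0709), or Cre-positive Tfh5 replicate 3 (0.0641) or 6 (0.262). Ikzf3, which encodes the Ikaros family protein Aiolos, had 0 counts in Cre-positive TfhA against 67.7 ± 30.0 CPM in Cre-positive Tfh5. Across Cre-negative libraries Ikzf3 was 1.24 ± 1.49 CPM in TfhA and 35.2 ± 8.18 in Tfh5 (adjusted p = 3.11e-05), where Jun rose by 1.66 (adjusted p = 0.00730) and Ikzf1 fell by 1.04 (adjusted p = 0.0339). Jun lost its call with plain library size (adjusted p = 0.0923) and without Cre-negative TfhA replicate 5 (0.0519) or Tfh5 replicate 2 (0.0892). Ikzf1 lost its call with only the 2 groups (adjusted p = 0.166) and without Cre-negative TfhA replicate 4 (0.204) or 5 (0.112) or Tfh5 replicate 5 (-0.68, 0.254).

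**Figure D5:**
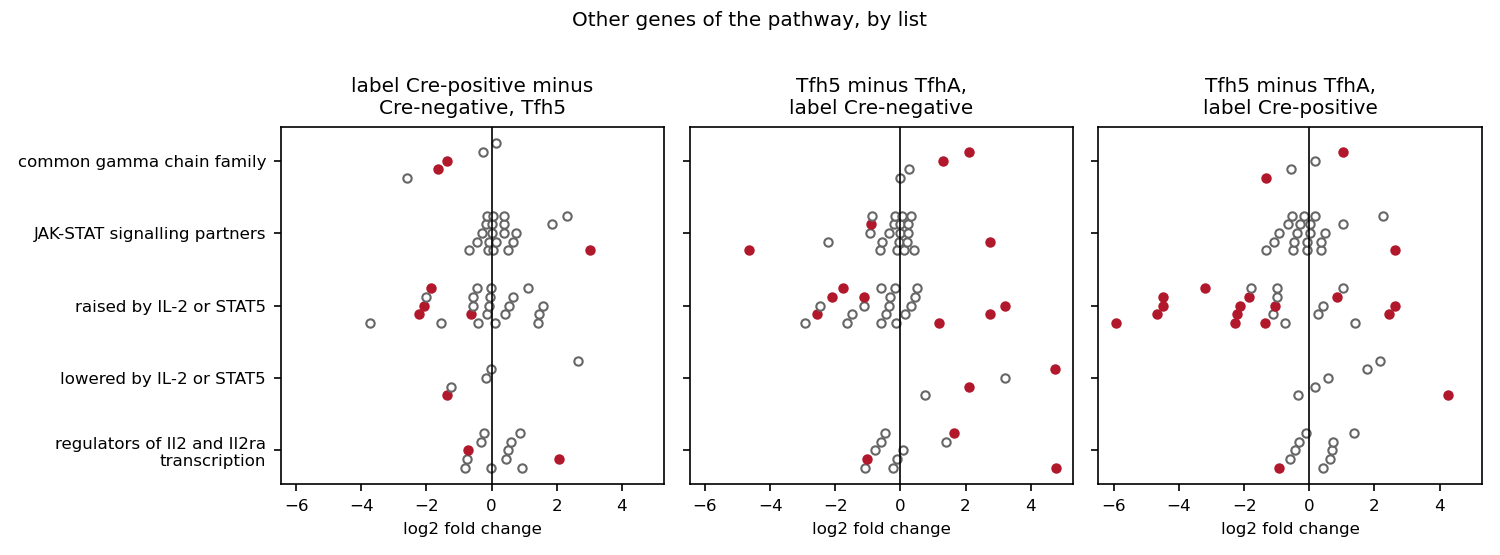
Log2 fold change of the pathway genes with a mean of at least 1 CPM in both groups (66, 64 and 64 of 72 list entries, from left to right), by list, for the labels in Tfh5 and for Tfh5 against TfhA within each label; filled points passed an adjusted p below 0.05 in edgeR, and the vertical offset only separates points. The genes known to be raised by IL-2 or STAT5 have filled points only left of 0 in the first panel and on both sides of 0 in the other 2.

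The genes whose levels ran most like each of these over the 18 libraries were listed as a description with no test, by Pearson correlation of log2 CPM. These correlations run over libraries that share depth and group, so they carry the group differences. Il2ra was most like Sfn (r = 0.853), Pik3r6 (0.848) and Mapkapk2 (0.832). Il2rb was most like Furin (0.898), followed by Prdx6 (0.866), and Il2rg was most like Nup210 (0.861). Among the genes most like Cish were Ifitm1 (0.893) and Mpp6 (0.889), and Socs1 was most like 1190007I07Rik (0.895) and Pfn1 (0.889). Stat5a was nearest to Rhbdd3 (0.838), Stat5b to the pseudogene Rpl34-ps1 (0.803) and Socs2 to Polr2j (0.806). The 10 genes themselves were left out of this ranking, so it does not show how they ran with each other.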

How the data were processed

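RNA of 18 libraries of CD4 T cells was measured by 3′ sequencing. The deposited values were expected counts per gene, some of them not whole numbers. Per the submitters' processing notes, STAR 2.7.2b, featureCounts 1.6.4 and the build mm10 were used. In each library 11.7% to 18.1% of the genes' values were not whole. The design had assumed whole counts, so the values were rounded to whole numbers before testing. Symbols were matched by Entrez identifier for 25275 of 27179 genes, and 0 columns were left unused.

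Genes were kept by edgeR's filter on low counts (11735 of 27179), scaled by TMM and tested with edgeR 4.0.16's quasi-likelihood test (R 4.3.3) in 1 fit over the 6 groups, with Benjamini-Hochberg adjustment over all genes tested and a call at an adjusted p under 0.05. The ± beside a log2 fold change is its standard error, and the ± beside a level is the SD over 3 libraries. Levels are TMM-scaled CPM. Where groups are said not to overlap, the share of all genes without overlap was not counted, so this is a description only. Libraries of one group differed beyond sampling noise in all 18 pairs. A 0 in a group of 3 libraries allows up to 3 counts, a limit that covers counting error only. The intervals of log2 fold changes come from the edgeR fit and, like its p-values, include the spread between these libraries, which may be technical.

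The 10 genes and the pathway lists were chosen with earlier results of these data known. Pathway genes were named by rule: from each list, up to 3 called genes with the smallest adjusted p in the label comparisons of Tfh1 and Tfh5 and in Tfh5 against TfhA of each label. Genes of like pattern are the 3 genes outside the 10 with the highest correlation to each member. Not all of them are reported here. The NF-κB type and Maf motifs were added to the STAT palindrome of the rule. The fit was tested on simulated data. Alternatives were DESeq2 1.42.0, no filter, only the groups compared, a replicate block, and leaving out each library. Same-numbered libraries did not deviate together (correlations of -0.0373 to 0.0662), so the numbers were not taken to pair them.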

Additional observations from a re-analysis of the deposited data

Results flagged for a closer look

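Among the 10 genes, Il2ra was singled out because its difference between the genotype labels was not the same in all treatments. The difference of the label effect was -1.24 on the log2 scale for Tfh1 against TfhA (edgeR, adjusted p = 0.0139) and -1.68 for Tfh5 against TfhA (adjusted p = 8.37e-05). Among the pathway genes, the label effect on Il7r differed by -1.93 (adjusted p = 0.0191), on Bcl2 by -2.39 (adjusted p = 0.0184) and on Tnfrsf9 by -1.44 (adjusted p = 0.00990) for Tfh5 against TfhA. Il24 had fitted differences of -8.19 (Tfh1, adjusted p = 3.78e-05) and -8.95 (Tfh5, adjusted p = 1.69e-05). Ikzf3 had fitted differences of 7.42 (Tfh1, adjusted p = 0.0156) and 7.21 (Tfh5, adjusted p = 0.00848). The fitted sizes for Il24 and Ikzf3 rest on groups at or near 0 counts (7 and 1 counts of Il24 in Cre-positive Tfh1 and Tfh5, 0 of Ikzf3 in Cre-positive TfhA) and are no bounds.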

How the results depend on the processing

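Of the calls among the 10 genes, those of Il2ra between the labels in Tfh1 and Tfh5, of Il2ra and Socs1 in Cre-negative Tfh5 against TfhA, and of the Il2ra difference of label effects for Tfh5 against TfhA were kept under every alternative run. Where a call was lost, the cause was not tested, except that fits of only the groups compared or without a library hold fewer samples. At 3 libraries a group, genes near 0 counts could not be ordered. Of 69 tested values of named genes, DESeq2 left 65 with the same direction and call, no filter 63, plain library size 56 and only the groups compared 50, and of 456 values without 1 library 394 were so left. Counts of all genes called and of called genes among the 10 moved as follows. Only the larger shifts are listed, so a count not listed may also have changed. In Cre-negative Tfh5 against TfhA, DESeq2 called 486 genes higher and 369 lower, where the main fit called 372 and 224.

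With DESeq2 all genes called went, for the labels, from 0 to 18 in TfhA, 100 to 263 in Tfh1 and 380 to 595 in Tfh5. With that tool the Cre-negative contrasts went from 262 to 438 (Tfh1 against TfhA) and 65 to 211 (Tfh5 against Tfh1), and the Cre-positive ones from 302 to 588, 206 to 404 (Tfh5 against Tfh1) and 633 to 961 (Tfh5 against TfhA). Its differences of label effects went from 28 to 63, 140 to 255 and 7 to 52 (Tfh1 against TfhA, Tfh5 against TfhA, Tfh5 against Tfh1), and 2 rather than 1 of the 10 genes were called between the labels in Tfh1.

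Without the filter on low counts the label comparisons called 23 (TfhA) and 168 (Tfh1), Tfh5 against Tfh1 called 232 (Cre-negative) and 314 (Cre-positive), and the differences of label effects 61, 235 and 45. Of the 10 genes it called 2 between the labels in Tfh1, 1 in Cre-positive Tfh1 against TfhA, 1 in Cre-negative Tfh5 against Tfh1 and 3 in the difference for Tfh5 against TfhA. That fit held 16302 genes, and of these Cre-positive Tfh1 against TfhA called 246 higher and 184 lower. With only the groups compared, 80 genes were called between the labels in Tfh5, 566 in Cre-negative Tfh1 against TfhA, 28 and 115 in Tfh5 against Tfh1 (Cre-negative, Cre-positive), and 64, 88 and 3 in the differences. Of the 10 genes that fit called 2 and 1 between the labels in Tfh1 and Tfh5, 4 and 1 in Tfh1 against TfhA (Cre-negative, Cre-positive) and 0 in Cre-positive Tfh5 against TfhA. Of all genes, it called 83 higher and 48 lower of 9701 between the labels in Tfh1. The Tfh5 label fit held 9662 genes, and that of Cre-negative Tfh1 against TfhA 10218. Among Cre-positive libraries it called 196 higher and 128 lower of 9806 in Tfh1 against TfhA. Tfh5 against TfhA gave 231 higher and 261 lower of 9941 there.

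With plain library size, chosen after seeing the data, 401 and 953 genes were called in Cre-negative Tfh1 and Tfh5 against TfhA, and 4 in the difference for Tfh5 against Tfh1. Of the 10 genes it called 1 and 1 in Tfh1 against TfhA (Cre-negative, Cre-positive) and 0 in the difference for Tfh1 against TfhA. Label effects near 0 changed sign: Il2ra and Cish in TfhA (0.0017 and 0.084) were -0.33 and -0.26, and Socs1 in Tfh1 (0.041) was -0.099. Without the 2 most abundant identifiers in the total, also chosen after seeing the data, they were -0.10, -0.016 and -0.061, and 1 of the 10 genes was called in Cre-positive Tfh1 against TfhA.

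With a replicate block, which could not be fitted between labels because they share no number, the difference for Tfh5 against Tfh1 called 16 genes, and the block changed no call of a named gene. Of 18 same-numbered pairs, 0 correlated above 0.1.

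Leaving out 1 library at a time, the Il2ra, Cish and Socs1 effects just named ranged from -0.061 to 0.076, from -0.023 to 0.22 and from -0.25 to 0.47. All genes called between the labels ranged from 0 to 4 in TfhA, 51 to 99 in Tfh1 and 258 to 387 in Tfh5. All genes called in Cre-positive Tfh5 against TfhA ranged from 448 to 543. In Tfh1 against TfhA they ranged from 129 to 202 (Cre-negative) and 170 to 282 (Cre-positive), in Cre-negative Tfh5 from 360 to 555 against TfhA and 25 to 94 against Tfh1, and in the differences from 18 to 27, 81 to 164 and 5 to 21. Of the 10 genes, 1 to 3 were called between the labels in Tfh5, 1 to 2 in Cre-negative Tfh1 against TfhA, 0 to 1 in Cre-negative Tfh5 against Tfh1, 1 to 3 in Cre-positive Tfh5 against TfhA, and 0 to 1 and 1 to 3 in the differences for Tfh1 and Tfh5 against TfhA.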
